A study of Homo sapiens with 12 samples.

Results

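The proteasome is the barrel-shaped protease that destroys proteins tagged with ubiquitin. The genes described here are those whose symbols begin with PSMA, PSMB, PSMC, PSMD, PSME, PSMF or PSMG followed by a number, which gave 50 of the 19305 transcript accessions in the count files. They comprise 8 alpha and 7 constitutive beta subunits of the 20S core, 4 inducible or tissue-specific beta subunits, 9 base and 8 lid subunits of the 19S cap, 3 chaperones of base assembly, 4 chaperones of core assembly, 4 alternative activators and the regulator PSMF1. PSMC3IP and PSME3IP1 match the letters of the rule but are not proteasome subunits. They were left out of the summaries by subunit group, and the counts over all tested genes, the counting intervals and the promoter counts include them. The measurement is ribosome profiling, in which the short mRNA fragments covered by ribosomes (footprints) are sequenced and counted over coding sequences. All 12 libraries are human. 4 came from H9 embryonic stem cells that carried eIF2A shRNA (2 libraries) or control shRNA (2 libraries), with no immunoprecipitation (IP) and no arsenite in their labels. 8 came from HEK293T, an embryonic kidney cell line, all exposed to sodium arsenite, an oxidative stressor, and all taken after IP of a cap-binding protein. They were treated with eIF2A siRNA or control siRNA, and each siRNA was combined with IP of CBP80, of the nuclear cap-binding complex, or of eIF4E, its cytoplasmic counterpart. The libraries of each of the 6 groups are numbered set 1 and set 2. What a set is remains unstated in the labels, and a p-value here can only reflect how far apart the libraries lie, whether that spread is biological or technical.

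The 20S core is a stack of alpha and beta rings in which beta subunits carry the peptide-cutting sites. The 19S cap sits on its ends: the lid removes ubiquitin, and the base, a ring of ATPases with scaffold and ubiquitin-receptor subunits, unfolds the substrate and feeds it into the core. Dedicated chaperones, which leave the finished particle, assemble base and core. When proteasome activity falls short, as under oxidative stress, the transcription factor NFE2L1 raises the expression of subunit genes through antioxidant response elements in their promoters.

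Before the proteasome genes, 4 facts about the libraries bear on every result. The CBP80 and eIF4E libraries of the same siRNA and set differed by little more than counting noise (chi-square per degree of freedom 1.01 to 1.03 in the 4 pairs, p = 0.0192 to 0.268), so their reads were summed and HEK293T counts as 4 libraries, 2 with eIF2A siRNA and 2 with control siRNA. EIF2A, the target, held 96 counts per 1000000 coding reads (CPM) in set 1 and 46.7 CPM in set 2 of the libraries labelled eIF2A siRNA, against 83.2 and 83.5 CPM in control siRNA. In H9 it held 110 and 68.2 CPM with eIF2A shRNA, against 103 and 60.9 CPM in control shRNA. Only the set 2 siRNA library was therefore lower in the target, and the text speaks of labels. Coding reads were 9500566 to 11375636 per HEK293T library after summing and 937990 to 1878700 per H9 library.

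Footprints were found on 47 of the 50 genes, and most subunits were counted deeply in every library. PSMB1, a core beta subunit, held 553 to 592 CPM in the 4 H9 libraries and 958 to 1061 CPM in the 4 HEK293T libraries. PSMD3, of the lid, held 381 to 512 CPM in H9 and 172 to 193 CPM in HEK293T. PSMG4, a small chaperone of core assembly, held 22.4 to 32.3 CPM in H9 and 13.1 to 16.5 CPM in HEK293T. The lines did not overlap for any of these 3 genes: PSMB1 was lower in H9, and the other 2 were higher. Such gaps were common. Of 11987 accessions with a mean of at least 10 reads, 33.9% lay higher in H9 without overlap and 36.4% lower. The lines did overlap for 4 of the 7 core beta subunits and 2 of the 8 lid subunits. Levels of different genes were not set against each other, because coding lengths were not used here.

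**Figure D1:**
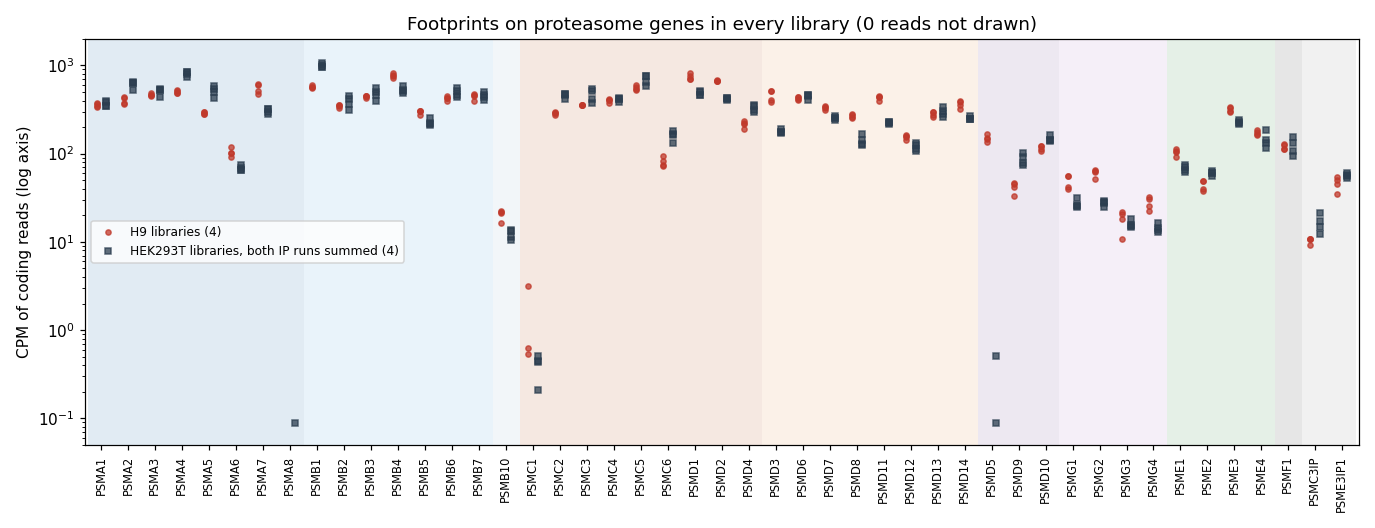
CPM of coding reads (log axis) of every proteasome gene with at least 1 read, by subunit group (shading), with a point for each H9 library (circles) and each HEK293T library with both IP runs summed (squares). PSMD5 lies above 135 CPM in H9 and at or below 0.51 CPM in HEK293T, and PSMC1 lies near the bottom in both lines.

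5 genes gave almost no reads. PSMA8, the alpha subunit of the testis proteasome, had 1 read in all libraries together. PSMB11, the thymus beta subunit, was listed at 0 throughout. A count of 0 leaves room for up to 3 counts, or 1.6 to 3.2 CPM in the H9 libraries and 0.264 to 0.316 CPM in the HEK293T libraries. PSMC1, an ATPase of the base that every cell needs, had 22 reads in all. It is the gene with the most named pseudogenes of the group, 13 against 6 or fewer for any other, and reads with more than 1 place in the genome are not counted per gene in these files, but their part in its count was not tested. PSMB8 and PSMB9, the interferon-inducible beta subunits, were listed at 0 in every library. So were 45 of the 60 genes around PSMB8 in genome order, PSMB9 among them (75%), compared with 11.9% of all accessions. Among those neighbours are RPS18, a ribosomal protein gene, and the peptide transporters TAP1 and TAP2, and POU5F1, the defining marker of stem cells such as H9, was at 0 in H9 too. A 0 at PSMB8 or PSMB9 therefore says nothing about their expression here. PSMB10, the third inducible beta subunit, which lies elsewhere, held 16.5 to 22.4 CPM in H9 and 10.5 to 13.6 CPM in HEK293T.

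The eIF2A siRNA comparison in HEK293T asked whether the label changed footprints under arsenite. 44 of the 50 genes had enough reads to be tested. 5 of them were lower and 0 higher with eIF2A siRNA: the regulator PSMF1, described in the test tube as an inhibitor of the core, the base ATPases PSMC3 and PSMC5, the core beta subunit PSMB2 and the base chaperone PSMD9. Over all 12331 genes, 6.29% were called lower and 6.15% higher, 12.4% in either direction, so the share of proteasome genes called is close to the background, with all 5 of them lower. Calls are edgeR quasi-likelihood tests with Benjamini-Hochberg adjustment over all genes at a threshold of 0.05.

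PSMF1 (also called PI31) held 93 and 107 CPM in sets 1 and 2 of eIF2A siRNA, against 131 and 152 CPM in control siRNA. The ratio was 0.709 in set 1 (95% counting interval 0.652 to 0.77) and 0.7 in set 2 (0.648 to 0.757). The fitted log2 difference was -0.59 ± 0.14 (SE, edgeR adjusted p = 0.00198). PSMC3 held 379 and 418 CPM with eIF2A siRNA, against 509 and 543 CPM in control siRNA. Its log2 difference was -0.49 ± 0.14 (edgeR adjusted p = 0.0127). PSMC5, another ATPase of the same ring, held 577 and 646 CPM with eIF2A siRNA, against 753 and 768 CPM in control siRNA (log2 difference -0.40 ± 0.14, edgeR adjusted p = 0.0497). Both ATPases were lower in each set, by about the same ratio for PSMC3 (0.743 and 0.769) and less so in set 2 for PSMC5 (0.766 and 0.84). PSMB2 held 316 and 366 CPM with eIF2A siRNA, against 412 and 450 CPM in control siRNA (log2 difference -0.42 ± 0.14, edgeR adjusted p = 0.0331). PSMD9, which guides the base ring together, held 78.5 and 75.2 CPM with eIF2A siRNA, against 91.3 and 101 CPM in control siRNA (log2 difference -0.41 ± 0.14, edgeR adjusted p = 0.0298). In all 5 genes both eIF2A siRNA libraries lay below both control libraries. The genes were picked by the test on these same libraries, so this adds no support to the calls.

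These calls rested on single libraries. Without the set 1 eIF2A siRNA library 0 genes were called, without the set 2 control library 0, without the set 1 control library 1, which was PSMF1, and without the set 2 eIF2A siRNA library 11. Over all genes the counts in the same order were 287 of 12575, 75 of 12764, 983 of 12629 and 2086 of 12610, in place of 1534 of 12331. The differences kept their sign in all 4 cases, with PSMF1 between -0.75 and -0.45 and PSMC3 between -0.62 and -0.37. Scaled by library size alone, 2 of the 5 calls were left, PSMF1 and PSMC3. EIF2A itself was lower in set 2 alone. The core and cap subunits together summed to 0.906 times control siRNA in set 1 and 0.952 times in set 2. Of the called genes, PSMC3, PSMC5 and PSMB2 were lower by more in set 1, and PSMF1 and PSMD9 in set 2. Any link between these ratios and the level of EIF2A was not tested. The share of uniquely placed reads that fell outside coding sequences also moved with the label, at 51.1% in set 1 and 42.3% in set 2 of eIF2A siRNA, against 40% and 35.2% in control siRNA. Its part in the lower counts was not tested.

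**Figure D2:**
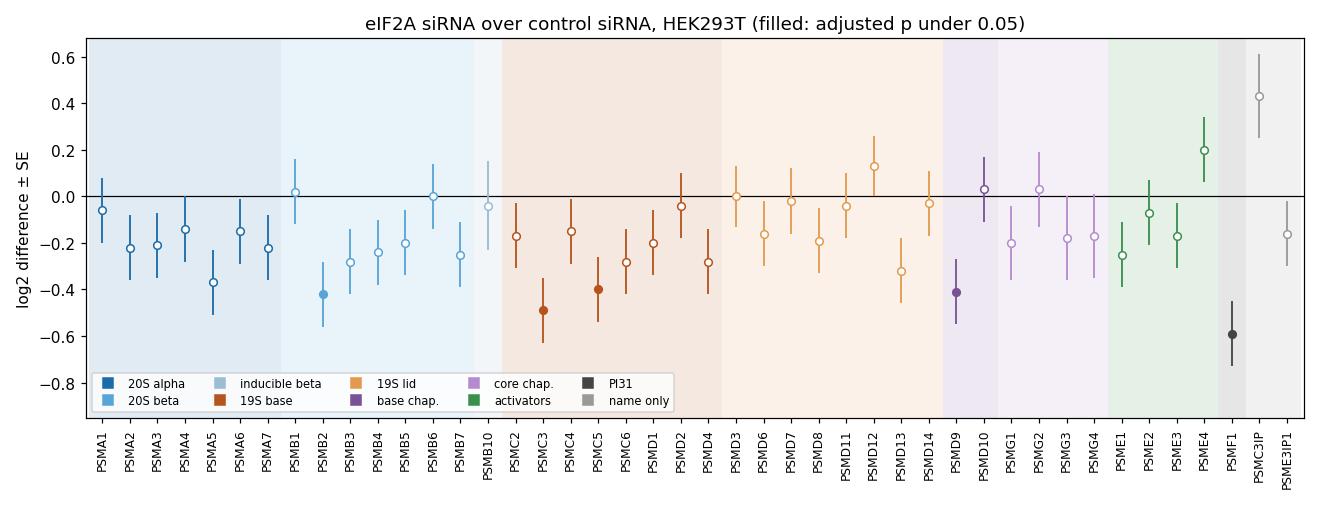
Fitted log2 difference of eIF2A siRNA over control siRNA in HEK293T (edgeR, ± SE, 2 libraries against 2), for the 44 tested genes in order of subunit group. Filled points passed an adjusted p of 0.05, and 27 of the 30 core and cap subunits lie below 0.

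By subunit group, the differences were small and mostly below 0. The 7 tested alpha subunits all lay below 0, with a median log2 difference of -0.21, the 8 base subunits likewise with -0.24, and 5 of 7 beta subunits with -0.24. The 8 lid subunits had a median of -0.04, with 7 below 0, and a median of 0.05 with library size alone as the scaling. The median of all 12331 genes was 0.004, with 49.5% below 0. Summed over the base, footprints were 3085 and 3330 CPM in sets 1 and 2 of eIF2A siRNA, against 3572 and 3668 CPM in control siRNA, ratios of 0.864 and 0.908. The lid sums were 1854 and 1947 CPM with eIF2A siRNA, against 1889 and 1962 CPM in control siRNA, ratios of 0.981 and 0.992. The alpha sums were 2832 and 3258 CPM with eIF2A siRNA, against 3252 and 3357 CPM in control siRNA, ratios of 0.871 and 0.97. The beta sums were 3271 and 3656 CPM with eIF2A siRNA, against 3477 and 3815 CPM in control siRNA. The sums overlapped between the siRNA labels for alpha, beta and lid, and did not for the base. With 2 libraries against 2, an exact two-sided permutation test of a sum cannot go below p = 0.333, so no test was made of the sums.

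Counting intervals were also taken gene by gene within each set. In set 1 the interval of the ratio lay below 1 for 24 of the 44 genes and above 1 for at least 5, and in set 2 below 1 for 17 and above 1 for at least 7. Lower limits that round to 1, of PSMD2 in set 1 and PSMD7 in set 2, are not among them. Of 11533 accessions with at least 100 reads in all libraries and 10 in HEK293T, 15.9% lay below 1 and 33.6% above in set 1, and 18.8% below and 27.4% above in set 2. Intervals narrow with depth, and the proteasome genes were read more deeply, with a median of 10652 reads in the HEK293T libraries compared with 1117 for all these accessions. Both sets put 15 genes below 1 (10.3% of all these accessions, and 19.9% above 1). They were the 5 called genes, the alpha subunits PSMA5 and PSMA7 and the beta subunits PSMB3, PSMB4 and PSMB7. The rest were the ATPase PSMC6, the base subunit PSMD1, the ubiquitin receptor PSMD4, the lid subunit PSMD13 and the activator PSME1. Both sets put 4 above 1: PSMB1, the lid subunit PSMD12, the activator PSME4 and PSMC3IP, which is not a subunit. These intervals cover counting error only. None of the 4 passed the edgeR test, where PSME4 had a log2 difference of 0.20 ± 0.14 (edgeR adjusted p = 0.36) and PSMC3IP 0.43 ± 0.18 (edgeR adjusted p = 0.091).

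Of 28 tested genes that make, regulate or work beside the proteasome, 1 was higher and 0 lower with eIF2A siRNA. Over all 12331 genes, 6.15% were called higher and 6.29% lower, so these counts do not stand above the background. RAD23B, a shuttle that carries ubiquitinated proteins to the proteasome, held 138 and 132 CPM with eIF2A siRNA, against 103 and 88.1 CPM in control siRNA (log2 difference 0.41, edgeR adjusted p = 0.0331). NFE2L1, the factor that drives subunit genes, differed by -0.05 on the log2 scale, and the core maturation factor POMP by -0.01. The ubiquitin receptor ADRM1 differed by -0.06 and the small lid subunit SEM1 by -0.07. None of these 4 passed the test.

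Promoter sequences of 44 of the 50 genes were read from RefSeq (GRCh38.p14), each running from 250 bases before to 50 bases after the gene start. They were searched on both strands for TGACNNNGC, the core of the antioxidant response element, for CCAAT, the box bound by NF-Y, and for CCGGAAG, the core bound by ETS factors. TGACNNNGC was in 13 of the 44 promoters (29.5%), compared with 14.3% of 15089 promoters of genes in the files. CCAAT was in 21 (47.7%, compared with 36.5%) and CCGGAAG in 14 (31.8%, compared with 14.6%). 6 of the 8 lid promoters held CCGGAAG, and 0 of 7 alpha promoters held TGACNNNGC. The 4 promoters below belong to the genes on which the comparisons turn: PSMF1 and PSMC3 had the smallest p with eIF2A siRNA, PSMD9 was called there and between the lines, and PSMD5 differed most between the lines. Each is written 5′ to 3′ on the gene's strand, and capitals mark any of the 3 motifs on either strand. PSMF1 lies at chr20:1113013-1113312 on the plus strand and PSMC3 at chr11:47426390-47426689 on the minus strand. PSMD9 lies at chr12:121888540-121888839 on the plus strand and PSMD5 at chr9:120842873-120843172 on the minus strand.
PSMF1: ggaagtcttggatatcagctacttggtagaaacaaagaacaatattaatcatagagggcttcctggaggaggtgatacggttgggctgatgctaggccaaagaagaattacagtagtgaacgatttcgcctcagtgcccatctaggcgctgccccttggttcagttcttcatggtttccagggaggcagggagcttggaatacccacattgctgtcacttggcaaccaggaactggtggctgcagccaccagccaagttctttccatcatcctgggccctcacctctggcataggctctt
PSMC3: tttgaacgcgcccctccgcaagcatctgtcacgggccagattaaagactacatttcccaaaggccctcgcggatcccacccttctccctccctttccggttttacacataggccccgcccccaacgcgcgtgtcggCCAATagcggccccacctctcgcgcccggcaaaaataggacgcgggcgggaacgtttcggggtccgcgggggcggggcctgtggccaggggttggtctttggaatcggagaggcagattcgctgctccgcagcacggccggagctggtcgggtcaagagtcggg
PSMD9: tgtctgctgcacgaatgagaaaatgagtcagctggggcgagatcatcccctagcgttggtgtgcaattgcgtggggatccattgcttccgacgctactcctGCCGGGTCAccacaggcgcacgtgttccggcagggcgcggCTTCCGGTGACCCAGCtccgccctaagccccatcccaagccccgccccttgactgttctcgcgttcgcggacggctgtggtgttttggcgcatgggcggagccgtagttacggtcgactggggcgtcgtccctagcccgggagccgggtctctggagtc
PSMD5: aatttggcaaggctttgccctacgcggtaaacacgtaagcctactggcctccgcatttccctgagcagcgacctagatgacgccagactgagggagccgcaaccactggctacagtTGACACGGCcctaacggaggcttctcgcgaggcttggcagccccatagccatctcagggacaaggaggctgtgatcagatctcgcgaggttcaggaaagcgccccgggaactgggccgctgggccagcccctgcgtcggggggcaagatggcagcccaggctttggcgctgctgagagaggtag
The PSMF1 window held none of the motifs and 4 CpG dinucleotides, where the median promoter held 22. PSMC3 held 1 CCAAT, as did PSMB2 and PSMC5. PSMD9 held 2 TGACNNNGC and 1 CCGGAAG, which adjoins the second of them, and PSMD5 held 1 TGACNNNGC. The 5 genes called with eIF2A siRNA thus shared no motif that all of their promoters held. A match of letters is a description and does not show that a factor binds there.

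In H9, no proteasome gene was called between the shRNA labels. Of 45 tested genes 0 were called, as were 0 of all 9751 (0%), with 84 of all genes at an unadjusted p under 0.05 in edgeR and 0 calls of proteasome genes in DESeq2. The within-set ratios of eIF2A shRNA over control shRNA had a median of 1.02 in both sets. With limits rounded, the 95% counting interval lay off 1 for 0 of the 45 genes in each set. PSMC5, called lower in HEK293T, had a ratio of 1.1 in set 1 with limits that round to 1 and 1.2. Its unrounded interval may lie above 1. Of 10852 accessions with at least 100 reads in all libraries and 10 in H9, 4.15% had an interval off 1 in set 1 and 4.22% in set 2. PSMF1, the gene with the smallest p in HEK293T, held 130 and 113 CPM in sets 1 and 2 of eIF2A shRNA, against 126 and 112 CPM in control shRNA. The 3 genes of smallest p were the core chaperone PSMG3 with a log2 difference of -0.47 ± 0.33, PSMD9 with 0.30 ± 0.22 and the alpha subunit PSMA6 with -0.18 ± 0.17, each with an edgeR adjusted p of 1. Within each set the 2 shRNA libraries differed only slightly beyond counting noise (chi-square per degree of freedom 1.04 and 1.07), and EIF2A was not lower in either. Libraries of the same label differed more between the sets (3.13 for control shRNA and 2.75 for eIF2A shRNA). The test took that spread as error, so its 0 calls do not show that the labels are alike.

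The test of the difference between the lines, the H9 label effect minus the HEK293T label effect, called 0 proteasome genes and 0 of 12911 genes (0%), with 1062 of all genes at an unadjusted p under 0.05 in edgeR and 0 calls in DESeq2. The smallest p-values were those of PSMF1 (log2 difference 0.62 ± 0.23, edgeR adjusted p = 0.473), PSMD9 (0.70 ± 0.26, edgeR adjusted p = 0.48) and PSMC5 (0.51 ± 0.19, edgeR adjusted p = 0.484). In this fit, which took the spread between the sets as error, the HEK293T differences were thus not shown to differ from those in H9.

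**Figure D3:**
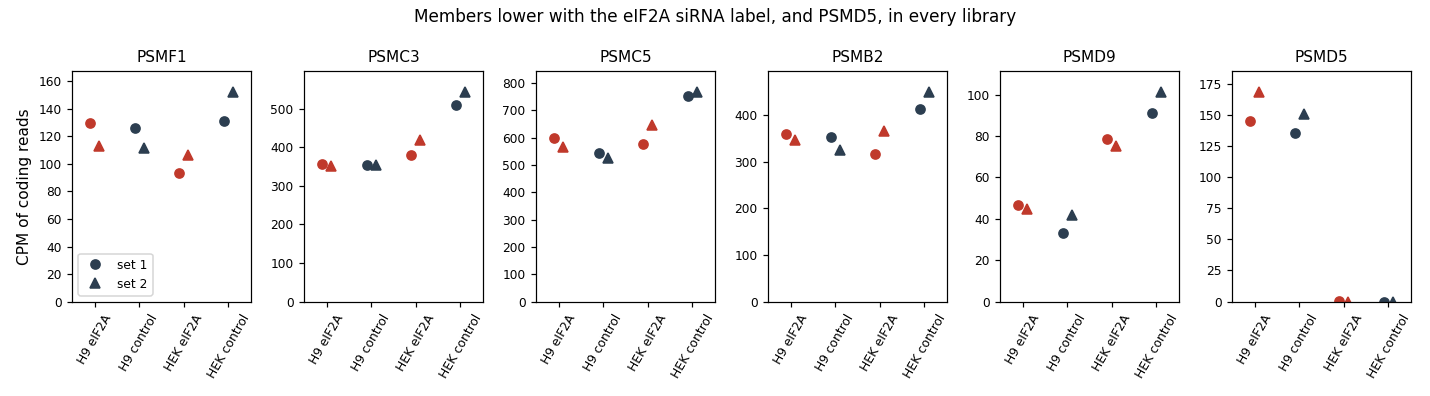
CPM of coding reads in every library for the 5 genes called with eIF2A siRNA and for PSMD5, with H9 libraries left of HEK293T libraries, eIF2A labels in red and control labels in dark blue. Circles are set 1 and triangles set 2. The red points lie below the dark ones in HEK293T for the first 5 genes, and PSMD5 is near 0 in HEK293T.

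The IP comparison asked whether mRNAs held by CBP80 and by eIF4E differed. 0 of 44 proteasome genes were called, and 6 of 11778 genes in all (0.0509%, each lower with CBP80). Over the 4 pairs of libraries, the ratio of CBP80 over eIF4E was 0.732 to 1.2 with a median of 0.999. At least 8 of 176 counting intervals lay off 1, compared with 4.45% over all accessions with enough reads. Lower limits that round to 1 are not among the 8. They were those of PSMB2 and PSME4 in control siRNA (sets 1 and 2) and PSMD14 in set 2 of eIF2A siRNA. The smallest p-values belonged to the beta subunit PSMB7 (log2 difference 0.06 ± 0.022) and the lid subunit PSMD13 (-0.07 ± 0.026), each with an edgeR adjusted p of 0.936, and to the base chaperone PSMD10 (-0.08 ± 0.037, edgeR adjusted p = 0.972). PSMD13 held 258 and 275 CPM in sets 1 and 2 of eIF2A siRNA with CBP80, against 260.1 and 292 CPM with eIF4E, and in control siRNA 292 and 329 CPM with CBP80, against 315 and 343 CPM with eIF4E. It was lower with CBP80 in 4 of 4 pairs, and PSMB7 was higher in 4 of 4. Both genes were picked by their p-values. The share of all genes that lie on 1 side in all 4 pairs was not counted, so this shows no IP difference. The label of the IP also did not change the siRNA difference measurably: 0 of 44 genes and 0 of 11778 genes (0%) were called for the interaction, with 530 of all genes at an unadjusted p under 0.05 in edgeR. The smallest p-values there were those of PSMD11 (-0.17 ± 0.059), PSMA3 (-0.09 ± 0.043) and PSMG2 (-0.33 ± 0.17), each with an edgeR adjusted p of 0.995.

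The largest differences lay between H9 control shRNA and HEK293T control siRNA libraries, and they ran in opposite directions in different parts of the particle. Cell line, arsenite, IP and the kind of RNA used change together here and cannot be told apart, nor can fewer cells of a type and less RNA per cell. Of 45 tested genes 14 were higher and 19 lower in H9. Of all 12307 genes, 34.5% were higher and 37.3% lower, 71.8% in either direction, so the counts are near the background. With library size alone as the scaling, under which the median log2 difference of all genes was 0.091 in place of -0.067, 19 were higher and 13 lower: PSMA3, PSMB3, PSMB6, PSMD6, PSMD13 and PSMF1 were then not called lower. Without the set 1 HEK293T control library 9 were higher and 17 lower, and without that of set 2 10 were higher and 12 lower. The higher calls of PSMD14, PSME1 and PSMG4 were lost without the first, those of PSMA6 and PSMG1 and the lower call of PSME2 without the second, and those of PSMD1 and PSMD12 without either. 5 of 8 lid subunits were higher and 2 lower, with a median log2 difference of 0.38. The base had 2 higher and 5 lower (median -0.70), the alpha ring 2 higher and 4 lower (median -0.36), and the beta ring 0 higher and 4 lower (median -0.33). 3 of 4 core chaperones were higher (median 0.72). The lid median stayed above 0 and the base, alpha and beta medians below 0 under every scaling tried.

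**Figure D4:**
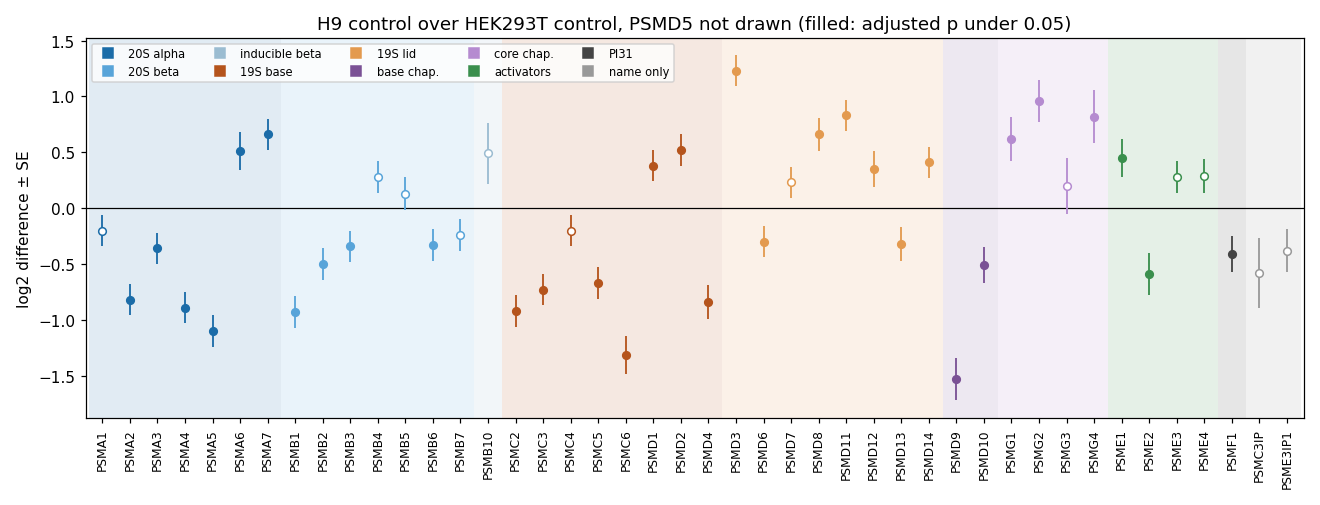
Fitted log2 difference of H9 control over HEK293T control (edgeR, ± SE, 2 libraries against 2) by subunit group, with filled points for an adjusted p under 0.05. PSMD5, too far above 0 for the axis, is not drawn. Most lid points lie above 0, and most base and alpha points below.

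PSMD3, a scaffold subunit of the lid, had the largest rise in H9 apart from PSMD5. It held 510 and 405 CPM in sets 1 and 2 of H9 control, against 172 and 177 CPM in HEK293T control (log2 difference 1.23 ± 0.14, edgeR adjusted p = 1.03e-16). PSMD11, another scaffold subunit of the lid, held 438 and 439 CPM in H9 control, against 224 and 217 CPM in HEK293T control (log2 difference 0.83 ± 0.14, edgeR adjusted p = 1.92e-08). Both lid subunits were well separated between the lines. The deubiquitinase of the lid, PSMD14, held 387 and 351 CPM in H9 control, against 250 and 248 CPM in HEK293T control (log2 difference 0.41 ± 0.14, edgeR adjusted p = 0.00702). PSMD6 and PSMD13 were the 2 lid subunits called lower, at -0.30 and -0.32, and neither call held with library size alone, RLE scaling or DESeq2. PSMD8 and PSMD12 were higher, the second not in DESeq2, and PSMD7 (0.23 ± 0.14, edgeR adjusted p = 0.138) was not called.

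In the base, the ATPases and the scaffolds went separate ways. PSMC6 held 71.7 and 83.4 CPM in H9 control, against 163 and 181 CPM in HEK293T control (log2 difference -1.31 ± 0.17, edgeR adjusted p = 2.05e-14). PSMC2 differed by -0.92, PSMC3 by -0.73 and PSMC5 by -0.67, all called lower, whereas PSMC4 (-0.20 ± 0.14, edgeR adjusted p = 0.201) was not called. PSMD1 and PSMD2, the 2 large scaffold proteins of the base, were higher. PSMD2 held 661 and 658 CPM in H9 control, against 409 and 415 CPM in HEK293T control (log2 difference 0.52 ± 0.14, edgeR adjusted p = 0.000361). PSMD1 differed by 0.38, and the ubiquitin receptor PSMD4 by -0.84.

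In the core, PSMA5 held 285 and 297 CPM in H9 control, against 534 and 587 CPM in HEK293T control (log2 difference -1.10 ± 0.14, edgeR adjusted p = 1.05e-13). PSMB1 held 573 and 553 CPM in H9 control, against 958 and 962 CPM in HEK293T control (log2 difference -0.93 ± 0.14, edgeR adjusted p = 8.6e-11). The groups of both genes were far apart. PSMA4 and PSMA2 differed by -0.89 and -0.82. PSMA7 went the other way, with 612 and 513 CPM in H9 control, against 319 and 316 CPM in HEK293T control (log2 difference 0.66 ± 0.14, edgeR adjusted p = 5.63e-06), as did PSMA6 (0.51). Of the catalytic beta subunits, PSMB6 was lower (-0.33, edgeR adjusted p = 0.029, a call not made with library size alone or in DESeq2), while PSMB5 (0.13) and PSMB7 (-0.24) were not called. RefSeq lists 4 pseudogenes named after PSMA6 and 3 after PSMC6, so the counts of both may miss reads shared with the copies.

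The chaperones showed the extremes. PSMD5, which holds the base ATPases PSMC1 and PSMC2 during assembly, had 872 reads in the H9 libraries and 6 in the HEK293T libraries. It held 145 and 168 CPM in sets 1 and 2 of H9 eIF2A shRNA and 136 and 151 CPM in H9 control, against 0.51 and 0 CPM in HEK293T eIF2A siRNA and 0.088 and 0 CPM in HEK293T control. Pooled, that is 148 CPM in H9 and 0.143 CPM in HEK293T, a ratio of 1.03e+03 with a 95% counting interval of 471 to 2.81e+03. The 2 genes next to PSMD5 were read in both lines: FBXW2 held 19.5 CPM in H9 and 42.8 CPM in HEK293T, and PHF19 held 16.1 CPM in H9 and 10.4 CPM in HEK293T. PSMD9 held 33 and 41.7 CPM in H9 control, against 91.3 and 101 CPM in HEK293T control (log2 difference -1.53 ± 0.19, edgeR adjusted p = 1.97e-14). PSMD10, also called gankyrin, differed by -0.51 and was called lower. Of the core chaperones, PSMG2 held 62.1 and 51.6 CPM in H9 control, against 25.1 and 27.3 CPM in HEK293T control (log2 difference 0.96 ± 0.19, edgeR adjusted p = 1.42e-06). PSMG1 (0.62) and PSMG4 (0.82) were also called higher, and PSMG3 (0.20 ± 0.25) was not.

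The activators open the gate of the core without the 19S cap. PSME1 was higher in H9 (log2 difference 0.45 ± 0.17, edgeR adjusted p = 0.0101) and its ring partner PSME2 lower (-0.59 ± 0.19, edgeR adjusted p = 0.00388). PSME1 held 112 and 108 CPM in H9 control, against 70 and 73.6 CPM in HEK293T control. PSME2 held 48.8 and 39.7 CPM in H9 control, against 56.2 and 63.2 CPM in HEK293T control. The pair thus moved apart, although RefSeq names 6 pseudogenes after PSME2 and none after PSME1. PSME3 (0.28) and PSME4 (0.29) were not called. PSMF1 was lower (-0.41 ± 0.16, edgeR adjusted p = 0.0144). It held 126 and 112 CPM in H9 control, against 131 and 152 CPM in HEK293T control. With the eIF2A labels pooled in, the ratio of H9 over HEK293T was 1.01 (95% counting interval 0.931 to 1.09).

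The lid took a larger share of the proteasome's footprints in every H9 library than in any HEK293T library, and the alpha ring a smaller share. The sums here cover the 32 core and cap subunits of the name rule. SEM1 of the lid and ADRM1, a receptor of the base, carry other names and are not in them. SEM1 held 86.2 and 110 CPM in H9 control, against 254 and 258 CPM in HEK293T control, and ADRM1 held 481 and 445 CPM in H9 control, against 189 and 201 CPM in HEK293T control. The summed subunits together held 12040 and 11800 CPM in H9 control, against 12190 and 12800 CPM in HEK293T control, a ratio of 0.954. The lid took 23.1% and 22.3% of that total in H9 control, against 15.5% and 15.3% in HEK293T control. The base took 26.8% and 28% in H9 control, against 29.3% and 28.6% in HEK293T control. The alpha ring took 22.9% and 22.1% in H9 control, against 26.7% and 26.2% in HEK293T control. The lid sum was 1.41 times that of HEK293T control, and the alpha sum 0.811 times. The libraries with eIF2A labels lay with the controls of their own line, with lid shares of 23.5% and 21.6% in H9 and 16.8% and 16% in HEK293T.

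**Figure D5:**
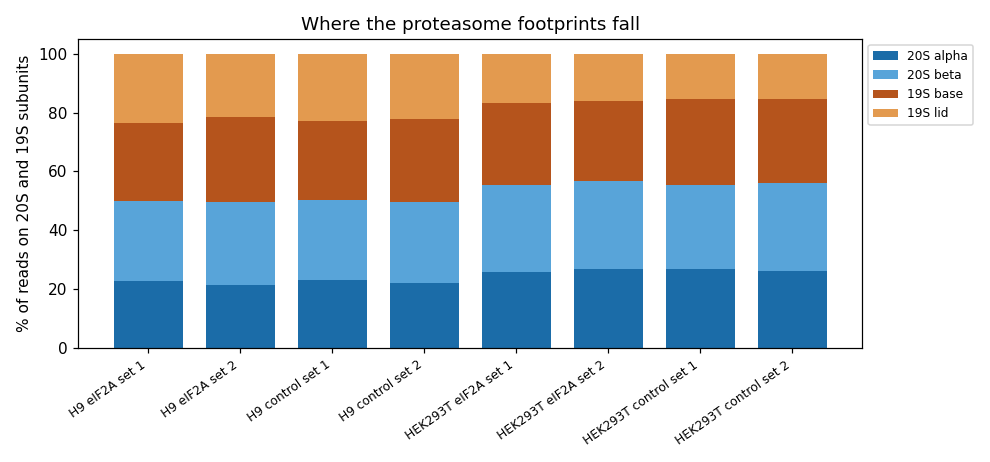
Share of the reads on core and cap subunits that fell on alpha, beta, base and lid subunits (stacked, in percent) in each H9 library and each HEK293T library with both IP runs summed. The lid takes 21.6 to 23.5% in the 4 H9 libraries and 15.3 to 16.8% in the 4 HEK293T libraries.

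Marker genes of other cell types moved with the lines. The 7 stem cell markers summed to 5410 to 5960 CPM in H9 and 91.4 to 112 CPM in HEK293T, with POU5F1 at 0, and the 4 markers of HEK293T to 28.8 to 37.8 CPM in H9 and 217 to 261 CPM in HEK293T. The 6 fibroblast markers summed to 657 to 828 CPM in H9 and 18.3 to 22.1 CPM in HEK293T. THY1 averaged 382 ± 16.4 CPM in H9 control and 0 CPM in HEK293T control (SD, n = 2 each), COL1A2 196 ± 75.1 CPM in H9 control and 0.0526 ± 0.0744 CPM in HEK293T control, and COL1A1 140 ± 29 CPM in H9 control and 13.5 ± 0.898 CPM in HEK293T control. COL3A1 held at most 1.6 CPM in any H9 library, and DCN and LUM were at 0 in H9. The 3 neural markers summed to 449 to 1070 CPM in H9, nearly all from NES, with PAX6 at 0, and to 60.2 to 65.5 CPM in HEK293T. Whether these marker reads come from other cell types was not tested, nor was their part in the proteasome differences.

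Of the 28 genes around the proteasome, 9 were higher and 13 lower in H9 control, shares near the 34.5% and 37.3% of all genes. NFE2L1 held 246 and 211 CPM in H9 control, against 35.4 and 34.5 CPM in HEK293T control (log2 difference 2.55 ± 0.16, edgeR adjusted p = 3.75e-53). ADRM1, which docks on the base scaffold, was higher by 1.09, and SEM1, the small lid subunit, lower by -1.54. POMP, needed to finish the core, differed by -1.13. ZFAND5, which stimulates the proteasome, differed by 2.62 and the ubiquitin-like shuttle UBQLN1 by 2.01. ZFAND2A, an arsenite-inducible partner of the 19S cap, held 3.17 and 1.98 CPM in H9 control, against 24.4 and 27.7 CPM in HEK293T control, the line that received arsenite (log2 difference -3.47 ± 0.39, edgeR adjusted p = 6.32e-18).

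The sets differed too, in ways that the labels do not describe. In HEK293T, with siRNA as a block, 0 of 44 proteasome genes and 100 of 12331 genes (0.811%) were called between set 2 and set 1. Of the 30 core and cap subunits, 29 lay above 0 in set 2. The median log2 difference of the 30 was 0.18, and 0.11 to 0.18 in the alternative settings. The median of all 12331 genes was 0.001, with 49.8% below 0. PSMB3 (0.38 ± 0.098, edgeR adjusted p = 0.0631), PSMD8 (0.35 ± 0.094, edgeR adjusted p = 0.0769) and PSME4 (-0.34 ± 0.091, edgeR adjusted p = 0.079) had the smallest p. PSMB3 held 499 CPM in set 2 and 391 CPM in set 1 of eIF2A siRNA, and 557 CPM in set 2 and 460 CPM in set 1 of control siRNA. PSME4, the nuclear activator PA200, held 132 CPM in set 2 and 185 CPM in set 1 of eIF2A siRNA, and 115 CPM in set 2 and 143 CPM in set 1 of control siRNA. In H9, with the shRNA labels summed, the median over 43 genes with at least 40 reads was -0.055, with no test. The counting interval lay above 1 for 3 of them and below 1 for 7. The share of all genes with an interval off 1 was not counted. Over all genes, H9 libraries of the same label differed between the sets, with a chi-square per degree of freedom of 3.13 (control) and 2.75 (eIF2A). The next 3 genes are therefore examples. PSMD3 held 396 CPM in set 2 and 511 CPM in set 1, a ratio of 0.774 (95% counting interval 0.715 to 0.838). PSMA7 held 497 CPM in set 2 and 609 CPM in set 1, a ratio of 0.817 (0.761 to 0.877). PSMD1 went the other way, with 784 CPM in set 2 and 699 CPM in set 1, a ratio of 1.12 (1.06 to 1.19). Marker genes moved with the sets of H9 as well. NES held 1066 CPM in set 2 and 445 CPM in set 1 of eIF2A shRNA, and 1065 CPM in set 2 and 481 CPM in set 1 of control shRNA. COL1A2 held 256 CPM in set 2 and 149 CPM in set 1 of eIF2A shRNA, and 249.5 CPM in set 2 and 143 CPM in set 1 of control shRNA. Their part in the differences between the sets was not tested.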

How the data were processed

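The deposited files hold raw counts of footprint reads on each coding sequence, with 1 RefSeq accession per row. Per the submitters' processing notes, the authors used cutadapt and STAR 2.5.2b with the genome build hg19, and the labels' protocols name TRIzol extraction and the TruSeq small RNA kit. Counter, strand setting and annotation were not given in the sources used here, so reads of overlapping genes cannot be told apart. Rows that name no gene (87.5 to 89.5% of all counts in HEK293T, 96.2 to 96.5% in H9) stayed out of totals and tests. Of 19305 accessions, 18888 were named through the RefSeq table of GRCh38.p14, which gave names, neighbours and promoters.

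Single-library CPM uses total coding reads. Tests used edgeR 4.0.16 in R 4.3.3 (filterByExpr, TMM, robust glmQLFit, glmQLFTest, Benjamini-Hochberg over all tested genes, threshold 0.05), on 2 libraries against 2 for the labels and lines, with the 2 IP libraries of a pair summed, except for the IP and its interaction with siRNA, which used 8 libraries with the pair as a block. SE is the log2 difference over the square root of F. Fitted values follow TMM and can differ from ratios of CPM. Intervals are 95% and cover only counting error, as no molecular identifiers are described. For the proteasome genes their limits were rounded before they were set against 1, so a limit that rounds to 1 was not counted as off 1. Alternatives were RLE scaling, library size alone, no filter, a mean count of 50 or more, DESeq2 1.42.0, omission of the 20 most abundant genes or of single libraries, a block for the set number, and single IP labels. The named genes are all genes of the rule, with full statistics for at most 12 called genes by p per comparison or the 3 of smallest p, and further genes given as examples of their group were chosen after their values were seen. The scripts were tested on simulated counts. The gene groups, lists and comparisons were chosen with earlier results of these data known.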

Additional observations from a re-analysis of the deposited data

Results flagged for a closer look

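Outside the coding sequences, the share of uniquely placed reads was higher with the eIF2A siRNA label than in control siRNA in both sets of HEK293T. It was 51.1% in set 1 and 42.3% in set 2 of eIF2A siRNA, against 40% and 35.2% in control siRNA, over the runs of both IPs together. These reads entered no comparison of proteasome genes. Their part in the lower counts of PSMF1, PSMC3, PSMC5, PSMB2 and PSMD9 was not tested.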

How the results depend on the processing

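The count of 5 proteasome genes called with eIF2A siRNA was 2 with library size alone, 1 and 2 in the CBP80 and eIF4E contrasts of the fit of 8 libraries, 3 in the 4 CBP80 libraries alone and 3 in the 4 eIF4E libraries alone, and 0 to 11 when each library was left out. With the set number as a replicate block it was 12, of which 1 was higher, among 2993 of 12331 genes called in all, and the difference between the lines then called 5 proteasome genes among 571 of 12911, where it called 0 of either without the block. The numbers were not taken to pair the samples, since there are 2 pairs and the labels name no shared culture; the deviations of the pair from the group means correlated at 0.287 over 11675 genes in HEK293T and 0.449 over 8747 genes in H9. Between the sets of HEK293T, where 0 proteasome genes were called, the count was 4 with RLE scaling, 3 with library size alone, 3 with no filter, 4 with a mean count of at least 50 and 1 in DESeq2, and leaving out a library left no residual degrees of freedom. The base sum in H9 control over HEK293T control was 0.876 without the 20 most abundant genes, in place of 0.902. No gene with full statistics reversed its direction in these alternatives, while the lid median with eIF2A siRNA, -0.04, was 0.05 with library size alone. The 0 calls for the shRNA, the IP and its interaction with siRNA were 0 under each alternative tried, and so were those for the difference between the lines except with the block. For the shRNA, the block raised the genes at an unadjusted p under 0.05 in edgeR from 84 to 493 of 9751. The split of the 45 genes between the lines was 14 higher and 19 lower, 13 and 14 in DESeq2, and, with the balance turned, 19 and 13 both with library size alone and with a mean count of 50 or more. The cause of these changes was not tested. Levels per length were not run because coding lengths were not used here. Depth limits the H9 libraries most, where 3 counts stand for 1.6 to 3.2 CPM.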
